A study of Homo sapiens with 3 samples.

Results

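Homeobox transcription factors carry a DNA-binding homeodomain, and many of them are switched on in stripes, domains or layers that divide the developing nervous system into regions. Combinations of them are therefore used to read where in the nervous system a neuron would belong. OTX genes mark the forebrain and midbrain, EN genes the border of midbrain and hindbrain, SIX3 the anterior forebrain and eye, and HOX genes the hindbrain and spinal cord, whereas factors of the LIM and POU classes sort neurons into types within a region. The TALE class (MEIS, PBX and IRX genes) includes partners that bind DNA together with other homeodomain proteins.

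The 54 genes described here were taken by name as regional homeobox genes from a table of 78932 genes. They were not picked by their values, though earlier results of these data were known. All 54 were found once each in the table and all were annotated as protein-coding. RNA had been measured in 3 untreated samples of iCell GlutaNeurons (iGluta), a commercial line of glutamatergic neurons made from human induced pluripotent stem cells, with genotype WT, after 3 weeks of culture. All 3 samples belonged to the same group, so the study held no control or treated arm. The line comes from a single supplier, and the labels do not say that the 3 samples were separate cultures, so errors and p-values measure only the spread between samples, which may be technical. Sample 3 was examined against samples 1 and 2 because it stood apart in earlier results of these data.

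The libraries held 34732725 estimated counts in sample 3, against 41079348 and 60092991 in samples 1 and 2. Genes of the mitochondrial genome took 10.6% of TPM (a length-corrected share of all transcripts) in sample 3, against 4.25 and 4.01% in samples 1 and 2. The common biological coefficient of variation, which is the spread between samples beyond counting error, was 0.188 over all 3 samples and 0.12 without sample 3 (edgeR). All 7 neuronal markers, STMN2 and TUBB3 among them, were above 1 TPM. The glutamate transporter SLC17A6 stood at 160 TPM in sample 3, against 80.7 and 105 TPM in samples 1 and 2. The GABA-synthesising enzyme gene GAD1 ran the other way, at 118 TPM in sample 3, against 203 and 234 TPM in samples 1 and 2. In bulk RNA fewer cells of a type and less RNA per cell cannot be told apart, and this holds for every level below.

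The starts of 4 members whose levels in sample 3 lay far from those in the other samples are shown to place them. Each sequence holds the 250 bases before the RefSeq transcript start in GRCh38.p14, read 5′ to 3′ on the gene's strand, with CpG dinucleotides in capitals. IRX1 and IRX2 were higher in sample 3, and NKX6-1 and MEIS1 were lower.

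IRX1, chr5:3595582-3595831, plus strand: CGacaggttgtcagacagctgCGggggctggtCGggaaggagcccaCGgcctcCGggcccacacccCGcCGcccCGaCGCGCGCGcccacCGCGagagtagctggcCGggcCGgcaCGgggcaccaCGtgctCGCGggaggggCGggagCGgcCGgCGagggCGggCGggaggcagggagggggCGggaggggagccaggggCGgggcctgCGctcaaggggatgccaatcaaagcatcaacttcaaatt

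IRX2, chr5:2751678-2751927, minus strand: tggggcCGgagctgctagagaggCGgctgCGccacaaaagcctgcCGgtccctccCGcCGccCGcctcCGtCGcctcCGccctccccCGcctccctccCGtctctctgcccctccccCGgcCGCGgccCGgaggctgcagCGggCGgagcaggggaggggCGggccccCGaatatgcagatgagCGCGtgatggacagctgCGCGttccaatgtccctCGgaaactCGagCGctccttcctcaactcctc

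NKX6-1, chr4:84499293-84499542, minus strand: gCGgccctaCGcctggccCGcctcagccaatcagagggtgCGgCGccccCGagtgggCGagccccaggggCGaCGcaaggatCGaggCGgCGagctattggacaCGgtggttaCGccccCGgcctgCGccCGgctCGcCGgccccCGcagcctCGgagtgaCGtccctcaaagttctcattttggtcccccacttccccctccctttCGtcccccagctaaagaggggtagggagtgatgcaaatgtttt

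MEIS1, chr2:66434875-66435124, plus strand: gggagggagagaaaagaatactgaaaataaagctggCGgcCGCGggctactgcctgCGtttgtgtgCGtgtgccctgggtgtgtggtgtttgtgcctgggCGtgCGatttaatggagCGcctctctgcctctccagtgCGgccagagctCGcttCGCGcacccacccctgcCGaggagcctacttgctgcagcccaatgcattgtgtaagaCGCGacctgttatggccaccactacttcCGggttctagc

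These windows held 29, 27, 23 and 16 CpG dinucleotides for IRX1, IRX2, NKX6-1 and MEIS1. Over the 65 windows of the 45 members in the RefSeq promoter table, the median was 22 CpG dinucleotides and 66% GC, against 11 and 58% over 35116 windows of all genes. The homeodomain core TAATTA, searched on both strands, was in 0 of the 65 member windows and in 4.35% of all windows. The MEIS-type word TGACAG was in 13.8% of member windows and 13.0% of all windows. The TATA box word TATAAA was in 4.62% of member windows and 10.7% of all windows. The octamer ATGCAAAT, a word bound by POU factors, was found in 1.54% of member windows, those of NKX6-1 (beginning 13 bases before the start), and in 1.63% of all windows. TAATCC, the word of OTX and PITX proteins, was in 1.54% and 5.62%, and TGATTNAT, of PBX and HOX proteins, in 3.08% and 2.48%. None of these words contains another. Several members have more than 1 window, and a word match describes the letters alone.

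The first question was which of these factors the neurons expressed. A level was set against a bar of 1 TPM with limma on log2(TPM + 0.1), 2-sided, adjusted by Benjamini-Hochberg over the 38992 genes with any signal. Of the 54 members 23 were above the bar, 21 were below it, 6 were undecided and 4 had no counts in any sample. Those 23 were 46.0% of the 50 members tested, against 40.6% of all genes tested and 71.2% of the protein-coding genes. The 21 below were 42.0%, against 45.1% of all genes and 19.9% of protein-coding genes. The median of mean TPM was 0.852 over the 50 members tested, 0.73 over all genes tested and 12.5 over protein-coding genes. The largest adjusted p among the 23 was 0.0133, that of PHOX2A (limma). The plot of TPM by sample shows the whole list.

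**Figure D1:**
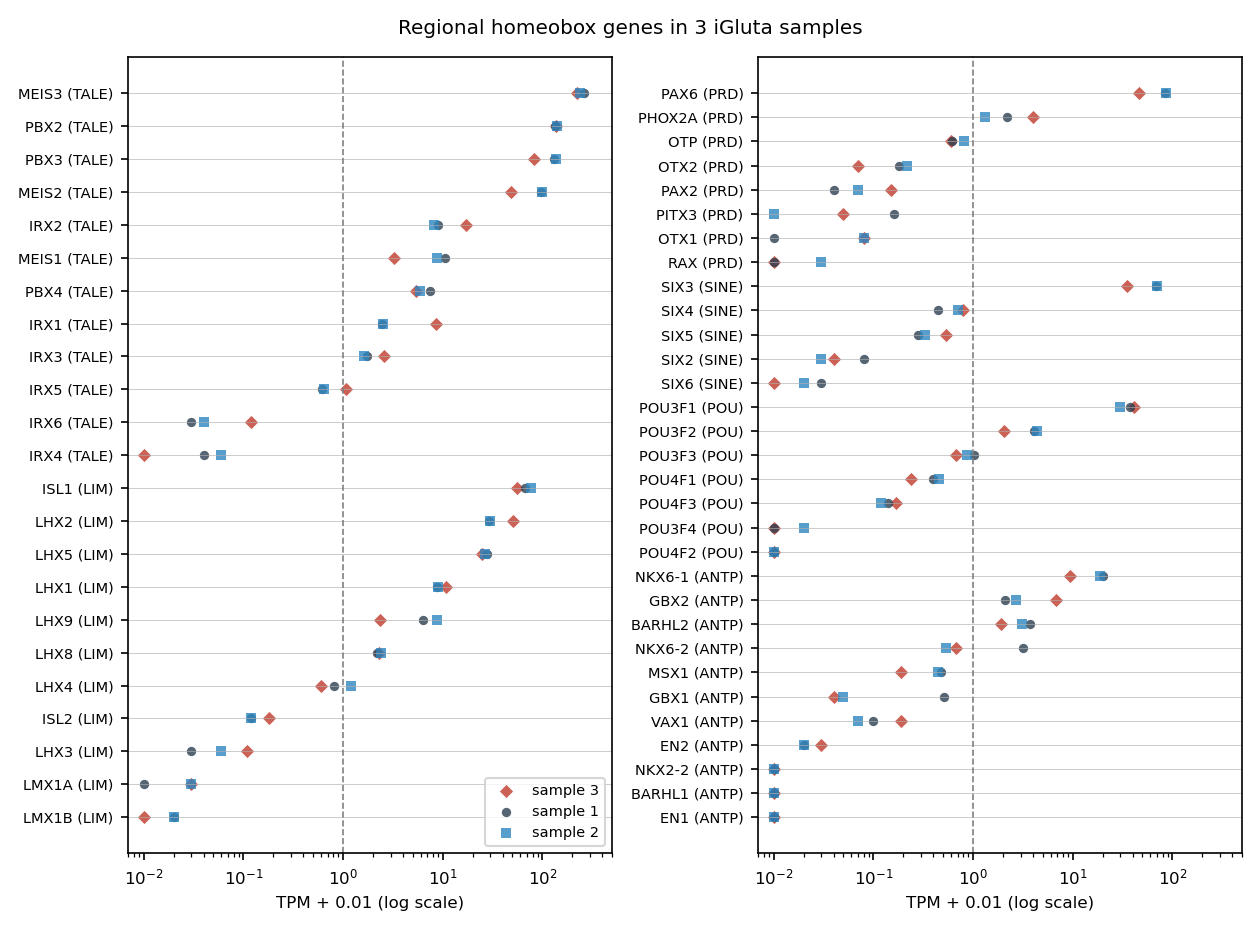
TPM of each of the 54 members in sample 3 (diamonds), sample 1 (circles) and sample 2 (squares), by homeobox class, on a log axis after adding 0.01, with a dashed line at the 1 TPM bar. MEIS3 leads at 223 to 260 TPM, and the points of LHX9, IRX1, GBX2 and MEIS1 lie farther apart than those of PBX2 or LHX8.

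TALE genes took most of the signal. They made up 63.6 ± 0.431% of the summed TPM of all members (SD, n = 3), at 63.9% in sample 3, against 63.7 and 63.1% in samples 1 and 2. MEIS3, a TALE factor that in the zebrafish and frog embryo acts in the hindbrain, was the highest member at 241 ± 18.6 TPM (adjusted p = 5.43e-11, limma), with 223 TPM in sample 3, against 260.2 and 239 TPM in samples 1 and 2. The pseudogenes MEIS3P1 (7.66 ± 1.22 TPM) and MEIS3P2 (5.55 ± 0.447) were above the bar as well, so part of the reads of MEIS3 could be shared with them. PBX2, a widely expressed partner of MEIS and HOX proteins, was the second highest at 136 ± 3.59 TPM, and its values of 137, 133 and 139.9 TPM in samples 3, 1 and 2 lay close together. PBX3, a related partner, was at 82.6 TPM in sample 3, against 131 and 136 TPM in samples 1 and 2.

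MEIS2, which is expressed in the embryonic striatum among other places, stood at 48.4 TPM in sample 3, against 97.2 and 99.6 TPM in samples 1 and 2. MEIS1 was at 3.25 TPM in sample 3, against 10.5 and 8.84 TPM in samples 1 and 2. Both were lowest in sample 3 with no overlap, and MEIS2 exceeded MEIS1 in all 3 samples by a mean of 3.51 ± 0.331 on the log2 scale. That ratio was more than 2 SD from 0, although the exact 2-sided sign-flip permutation p of 0.25, the smallest that 3 samples allow, cannot pass 0.05. PBX4, a less studied PBX gene, was at 5.37 TPM in sample 3, against 7.38 and 5.98 TPM in samples 1 and 2.

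The Iroquois genes (IRX) pattern many tissues and lie in a pair of clusters of 3 genes each. In the cluster on chromosome 5 (1877413 to 3601403, GRCh38.p14), IRX2 was at 17.3 TPM in sample 3, against 9.02 and 8.18 TPM in samples 1 and 2. Its neighbour IRX1 was at 8.52 TPM in sample 3, against 2.43 and 2.49 TPM in samples 1 and 2, while IRX4 had at most 3 counts in any sample. In the cluster on chromosome 16 (54283304 to 55330756) IRX3 was above the bar at 2.57 TPM in sample 3, against 1.75 and 1.63 TPM in samples 1 and 2. IRX5 was undecided at 1.06 TPM in sample 3, against 0.6 and 0.63 TPM in samples 1 and 2, and IRX6 was below it at 0.0533 ± 0.0493 TPM. IRX1, IRX2, IRX3 and IRX5 thus each had their highest level in sample 3, above both other samples. Summed over a cluster, sample 3 stood at 25.8 TPM on chromosome 5, against 11.5 and 10.7 TPM in samples 1 and 2, and at 3.74 TPM on chromosome 16, against 2.37 and 2.29 TPM.

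Of the factors that define the forebrain, PAX6, SIX3 and LHX2 were well above the bar, while the OTX genes were nearly silent. PAX6, a paired-domain factor of the cortical ventricular zone, eye and other regions, was at 46.8 TPM in sample 3, against 84.5 and 85.5 TPM in samples 1 and 2 (mean 72.3 ± 22.1; adjusted p = 9.77e-09, limma). SIX3, which in mice is needed to form the anterior forebrain, was at 34.9 TPM in sample 3, against 68.2 and 69.6 TPM in samples 1 and 2 (mean 57.5 ± 19.7; adjusted p = 2.98e-08, limma). LHX2, a LIM factor of the cortical primordium, eye and hypothalamus, ran the other way at 50.8 TPM in sample 3, against 29.2 and 30.0 TPM in samples 1 and 2 (mean 36.7 ± 12.3; adjusted p = 2.19e-08, limma). PAX6 and SIX3 were thus lowest, and LHX2 highest, in sample 3, with no overlap of values. LHX8, a factor of forebrain cholinergic neurons, was at 2.3 TPM in sample 3, against 2.18 and 2.42 TPM in samples 1 and 2.

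OTX2, which marks the forebrain and midbrain in the embryo, had 2 counts in sample 3, against 3 and 6 counts in samples 1 and 2. OTX1, its relative in cortical projection neurons, had 2 counts in sample 3, against 0 and 3 in samples 1 and 2. Both were below the bar, at 0.147 ± 0.0777 TPM for OTX2 and 0.0467 ± 0.0404 TPM for OTX1. GBX2, which opposes OTX2 at the border of midbrain and hindbrain, was above the bar with 195 counts in sample 3, against 90.1 and 120.3 counts in samples 1 and 2. The OTX genes together were below the GBX genes together in 3 of 3 samples, with a mean log2 ratio of -3.71 ± 1.06 that was over 2 SD from 0 (exact 2-sided permutation p by sign flips = 0.25). The counts behind it were 16 for the OTX genes and 416 for the GBX genes over all samples, and with a pseudocount of 1 the log2 ratio was -1.99. GBX2 itself was at 6.8 TPM in sample 3, against 2.1 and 2.71 TPM in samples 1 and 2, and GBX1, of the spinal cord and basal forebrain, was below the bar at 0.19 ± 0.269 TPM. GBX2 overlaps GBX2-AS1 in the annotation, so reads could be confused between them.

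SIX3 was alone among its family in a high level. SIX6, its closest relative, of the eye and pituitary, had 0 counts in sample 3, against 1 count each in samples 1 and 2. In counts not divided by length, SIX3 exceeded SIX6 by 5330-fold over all samples, with an exact 95% interval from 1470 to 44000 for counting error only. SIX4, a broadly expressed member, was undecided at 0.78 TPM in sample 3, against 0.44 and 0.69 TPM in samples 1 and 2. SIX5, which lies beside the myotonic dystrophy kinase gene, and SIX2, a factor of kidney progenitors, were below the bar at 0.37 ± 0.132 and 0.04 ± 0.0265 TPM.

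OTP, VAX1, RAX and NKX2-2, further factors of the hypothalamus or eye, were scarce. Some members also found in the hypothalamus or eye, PAX6, LHX2, ISL1 and LHX5 among them, were above the bar. OTP, a determinant of neuroendocrine neurons of the hypothalamus, was undecided at 0.59 TPM in sample 3, against 0.6 and 0.81 TPM in samples 1 and 2. VAX1, of the ventral forebrain and optic nerve, was below the bar at 0.11 ± 0.0624 TPM. RAX, of the early eye field, had 0 counts in samples 3 and 1 and 2 counts in sample 2. NKX2-2, a ventral factor of the hypothalamus and spinal cord, had 0 counts in every sample.

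Of 7 members tied to the midbrain, none was above the bar (limma), beside 40.6% of all genes and 71.2% of protein-coding genes. On CPM each of those 7 with counts was below a bar of 1 CPM. The grouping by region was made from general knowledge, and several members act in more than 1 region. OTX1, OTX2, PAX6, LHX2 and LHX8 were grouped as forebrain and midbrain and counted apart, and 3 of those 5 were above. EN1, a midbrain and anterior hindbrain factor also needed by dopamine neurons in mice, had 0 counts in every sample. A count of 0 allows up to 3 counts, which is 0.086 CPM (counts scaled to the library total) in sample 3, against 0.073 and 0.05 CPM in samples 1 and 2, for counting error only. EN2 had 1 count in each sample. LMX1A and LMX1B, which specify midbrain dopamine neurons, had at most 2 counts in any sample, so no ratio between them is given. PITX3, a factor that keeps dopamine neurons alive in mice, had 1 count in sample 3, against 4 and 0 counts in samples 1 and 2. PAX2, of the border region and kidney, was at 0.0767 ± 0.0569 TPM and MSX1, a dorsal and floor plate factor, at 0.363 ± 0.159 TPM.

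LIM factors sort neurons into types, and 6 of the 11 in the list were above the bar, beside 40.6% of all genes and 71.2% of protein-coding genes. ISL1, which marks motor, sensory, striatal and hypothalamic neurons, was at 55.6 TPM in sample 3, against 66.5 and 77.0 TPM in samples 1 and 2 (adjusted p = 5.74e-10, limma). Its relative ISL2, of motor and retinal ganglion neurons, had 5 counts in sample 3, against 3 and 4 counts in samples 1 and 2. ISL1 exceeded ISL2 by 8.17 ± 0.433 on the log2 scale of TPM in 3 of 3 samples (exact sign-flip permutation p = 0.25), a size that depends on the pseudocount and was 5.89 with a pseudocount of 1. LHX3 and LHX4 give motor neurons their identity together with ISL1. LHX3 had 4 counts in sample 3, against 1 and 3 counts in samples 1 and 2, and LHX4 was undecided at 0.59 TPM in sample 3, against 0.8 and 1.18 TPM in samples 1 and 2.

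LHX5 and LHX1, paralogs found in Cajal-Retzius cells, hypothalamus and many interneurons, were both above the bar. LHX5 was at 24.7 TPM in sample 3, against 27.6 and 26.8 TPM in samples 1 and 2, a small spread. LHX1 was at 10.8 TPM in sample 3, against 8.67 and 9.06 TPM in samples 1 and 2, but at 8.26 CPM in sample 3, against 9.71 and 7.55 CPM in samples 1 and 2, so it was highest in sample 3 on TPM only. LHX9, a relative of LHX2 in thalamus and spinal cord, was at 2.32 TPM in sample 3, against 6.32 and 8.81 TPM in samples 1 and 2. The log2 ratio of LHX2 over LHX9 was 4.4 in sample 3, against 2.19 and 1.76 in samples 1 and 2. Its mean of 2.78 ± 1.41 was positive in 3 of 3 samples and within 2 SD of 0 (exact sign-flip permutation p = 0.25). Without sample 3 the mean was 1.97, over 2 SD from 0.

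Ventral and dorsal factors of hindbrain and spinal cord were represented by a few genes. NKX6-1, which specifies ventral progenitors and motor neurons and also pancreatic beta cells, was at 9.34 TPM in sample 3, against 20.1 and 18.8 TPM in samples 1 and 2 (adjusted p = 9.04e-07, limma). Its relative NKX6-2 was undecided at 0.67 TPM in sample 3, against 3.13 and 0.53 TPM in samples 1 and 2. The counts of NKX6-2 were close, at 32.5 in sample 3, against 48.3 and 40.5 in samples 1 and 2, and the length implied by counts over TPM differed 3.67-fold between samples, so its TPM is less certain. BARHL2, of spinal interneurons, diencephalon and retina, was at 1.89 TPM in sample 3, against 3.7 and 3.06 TPM in samples 1 and 2, while its relative BARHL1 had 0 counts in every sample.

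Factors of peripheral neurons were low apart from ISL1. PHOX2A, which specifies noradrenergic and cranial motor neurons, was above the bar at 3.98 TPM in sample 3, against 2.17 and 1.3 TPM in samples 1 and 2. It was undecided without sample 3, where the mean of samples 1 and 2 was 1.74 TPM, and undecided on CPM with a bar of 1 CPM. POU4F1, a marker of sensory neurons and of the habenula, was below the bar at 0.357 ± 0.114 TPM. POU4F3, of inner ear hair cells, was below it at 0.133 ± 0.0252 TPM, and POU4F2, of retinal ganglion cells, had 0 counts in every sample.

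The POU3F genes act in neural progenitors and cortical neurons, and POU3F1 also in Schwann cells. POU3F1 was at 41.1 TPM in sample 3, against 37.7 and 29.8 TPM in samples 1 and 2. POU3F2, known as BRN2 and used to turn other cells into neurons, was at 2.06 TPM in sample 3, against 4.04 and 4.36 TPM in samples 1 and 2. POU3F3 was undecided at 0.66 TPM in sample 3, against 1.01 and 0.87 TPM in samples 1 and 2, and above 1 on CPM. POU3F2 exceeded POU3F3 by 1.87 ± 0.348 on the log2 scale of TPM in 3 of 3 samples (exact sign-flip permutation p = 0.25), over 2 SD from 0. POU3F4 had 0 counts in samples 3 and 1 and 1 count in sample 2.

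The order of the 24 members with a mean of at least 1 TPM was clear only in part. MEIS3 over PBX2, POU3F1 over LHX5 and LHX5 over NKX6-1 were the neighbours in that order whose sample values did not overlap, and the other 20 of 23 neighbouring pairs overlapped. With a bar of 0.5 TPM 23 members were above it, and with a bar of 2 TPM 18 were.

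The second question was how sample 3 differed from the others. With 1 sample against 2 of the same labelled group there is no test, and differences are given as log2 of sample 3 over the mean of samples 1 and 2 with a pseudocount of 0.1 TPM. The 24 members with a mean of at least 1 TPM spread more widely than other genes. Their median size of difference was 0.833 in sample 3, 0.338 in sample 1 and 0.383 in sample 2, each against the mean of the other samples, while over 18192 genes it was 0.247, 0.181 and 0.203. The median over all genes was itself shifted, to -0.137 for sample 3 on TPM, and was -0.0123 on counts scaled by TMM (edgeR's trimmed mean of M values). Values relative to that median are therefore given for some members as well.

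**Figure D2:**
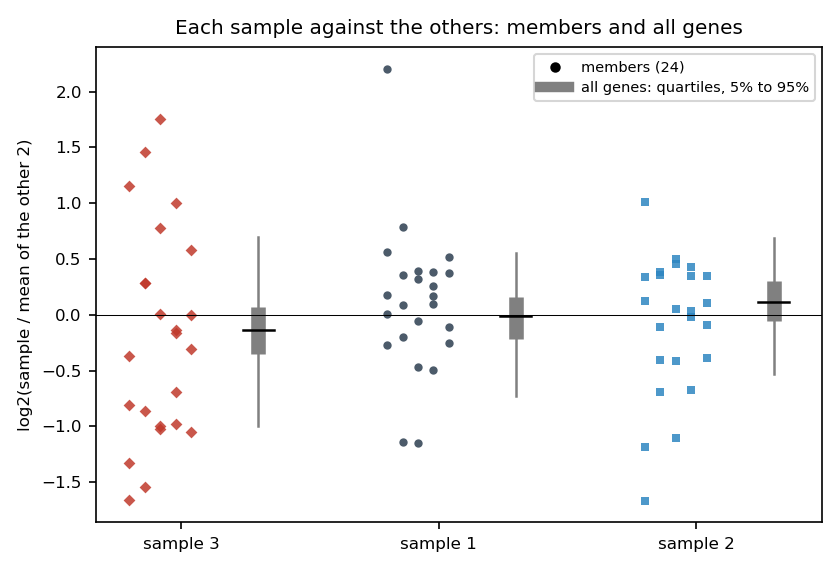
Each point is a member with a mean of at least 1 TPM (24 genes), plotted as log2 of the named sample over the mean of the other samples, and the grey bars beside the points show the quartiles (thick), the 5% to 95% range (thin) and the median (black line) of 18192 genes. The members' median size of difference is 0.833 in sample 3, against 0.338 in sample 1 and 0.383 in sample 2.

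Of the 24 members, 3 were 2-fold or more higher in sample 3, where 2.59% of all genes were. These were IRX1 (3.37-fold), GBX2 (2.75-fold) and PHOX2A (2.22-fold), and IRX2 lay just short of that limit (2.00-fold after rounding). Another 5, MEIS1, LHX9, NKX6-2, NKX6-1 and MEIS2, were 2-fold or more lower, where 5.02% of all genes were. NKX6-2 is in that count only through sample 1: at 0.67 TPM sample 3 lay above the 0.53 TPM of sample 2, and sample 1, at 3.13 TPM, alone brought its mean over 1 TPM. The other 4 were lower in sample 3 than in each of the other samples. LHX9 was at 0.316 of the level in the other samples, MEIS1 at 0.342, NKX6-1 at 0.483 and MEIS2 at 0.492. POU3F2 at 0.502 and SIX3 at 0.507 lay just outside the limit. At 1.5-fold, 5 members were higher (6.41% of all genes) and 10 were lower (12.7% of all genes). The 5 were IRX1, GBX2, PHOX2A, IRX2 and LHX2, and SIX3, POU3F2, PAX6, BARHL2 and PBX3 joined those lower.

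Fewer members passed those limits in the other samples. In sample 1, 1 member was 2-fold or more higher (1.57% of all genes) and 2 were lower (2.79%). In sample 2, 1 was higher (1.6%) and 3 were lower (1.89%). IRX1 was among those lower in both, since its level in sample 3 enters the mean it is set against.

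The genes that were higher in sample 3 kept that difference under other scalings, while most that were lower came inside the 2-fold limit on scaled counts. On TMM-scaled CPM 4 members were 2-fold or more higher (2.61% of all genes), the same 3 and IRX2, and 1 was lower (2.57%), LHX9 at a log2 difference of -1.35. At 1.5-fold on that scale, a limit added after seeing the data, 5 were higher (7.23%) and 7 were lower (7.75%). MEIS1 was at -0.66 on TMM-scaled CPM and at -1.41 on TPM relative to the median of all genes, and the length implied by its counts and TPM differed 1.88-fold between samples. Also relative to that median, NKX6-1 (-0.91) and MEIS2 (-0.89) came inside the 2-fold limit. LHX9 (-1.53) stayed beyond it, and IRX2 (1.135) passed it on the high side. NKX6-2 was at -1.33 on TPM and 0.06 on TMM-scaled CPM, a change of sign. NKX6-1 was at -0.86, SIX3 at -0.86, POU3F2 at -0.89, MEIS2 at -0.80 and PAX6 at -0.52 on TMM-scaled CPM, all still lower. LHX1 also changed sign between scalings, and LHX8 lay at 0 on TPM.

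**Figure D3:**
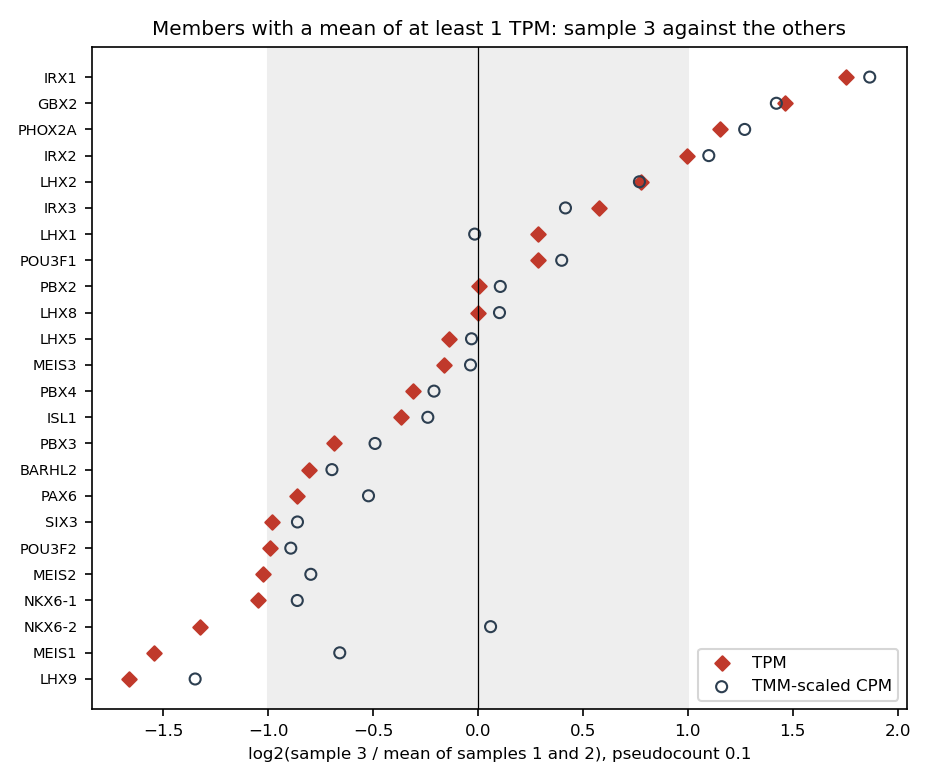
Log2 of sample 3 over the mean of samples 1 and 2 for the 24 members with a mean of at least 1 TPM, on TPM (diamonds) and on TMM-scaled CPM (circles), with the range within 2-fold shaded. IRX1, GBX2 and PHOX2A lie beyond 2-fold on the high side on both scales, LHX9 lies beyond it on the low side on both, and NKX6-2 is at -1.33 on TPM and 0.06 on TMM-scaled CPM.

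Some markers of other cell states were higher in sample 3, and others of the same lists were not. The 7 neural progenitor markers, of which 2 were above the bar, summed to 358 TPM in sample 3, against 164 and 166 TPM in samples 1 and 2. Nearly all of that sum came from 2 genes of intermediate filaments, VIM at 267 TPM in sample 3, against 123 and 120 TPM in samples 1 and 2, and NES at 88.5 TPM, against 38.0 and 43.9 TPM. SOX2, a defining progenitor factor, was at 0.57 TPM in sample 3, against 0.74 and 1.27 TPM in samples 1 and 2, and the cell cycle gene TOP2A at 0.01 TPM, against 0.16 and 0.2 TPM. HES5 was at 1.46 TPM in sample 3, between the 1.64 and 1.07 TPM of samples 1 and 2, and HES1 and MKI67 stayed under 1 TPM in every sample. The 5 epithelial markers, of which 4 were above, summed to 256 TPM in sample 3, against 118 and 117 TPM in samples 1 and 2. Most of that difference lay in the keratin genes KRT8, at 115 TPM in sample 3, against 25.9 and 24.4 TPM in samples 1 and 2, and KRT18, at 93.5 TPM, against 54.5 and 53.5 TPM. EPCAM was at 44.4 TPM in sample 3, against 34.6 and 36.3 TPM, KRT19 at 2.82 TPM, against 2.68 and 2.24 TPM, and CDH1 at 0.4 TPM, against 0.33 and 0.37 TPM. Genes of these marker lists were named after their values were seen. The 6 neural crest and Schwann markers (2 above) summed to 7.22 TPM in sample 3, against 8.18 and 7.29 TPM in samples 1 and 2. The sums of the 6 astrocyte markers (1 above) were 4.8 TPM, against 6.14 and 4.03 TPM, and those of the 5 oligodendrocyte markers (1 above) 47.6 TPM, against 38.1 and 46.5 TPM. The 5 microglial markers (0 above, AIF1 at 0 counts), the 4 endothelial markers (0 above, PECAM1 and CDH5 at 0) and the 6 mesenchymal markers (1 above, LUM at 0) summed to between 0.16 and 2.05 TPM in sample 3, against 0.66 to 4.51 TPM in samples 1 and 2. The part of VIM, NES and the keratin genes and of the mitochondrial share in the differences of sample 3 was not tested.

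The regional reading of the members was set beside genes of other kinds. HOX genes, the markers of hindbrain and spinal cord, were the sparsest: none of 39 was above the bar (limma, 0 at an unadjusted p under 0.05), 7 were below it and 32 had 0 counts in every sample. All 39 together held 24 counts in sample 3, against 12.8 and 17 counts in samples 1 and 2, and the highest, HOXC13, was at 0.37 TPM in sample 3, against 0.21 and 0.11 TPM. Of 65 homeobox genes of other kinds 25 were above the bar, led by the cut-homeobox factor ONECUT3 (331 ± 10.2 TPM), ADNP (110.3 ± 21.3), UNCX (85.2 ± 28.4) and DLX1 (66.7 ± 25.1).

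**Figure D4:**
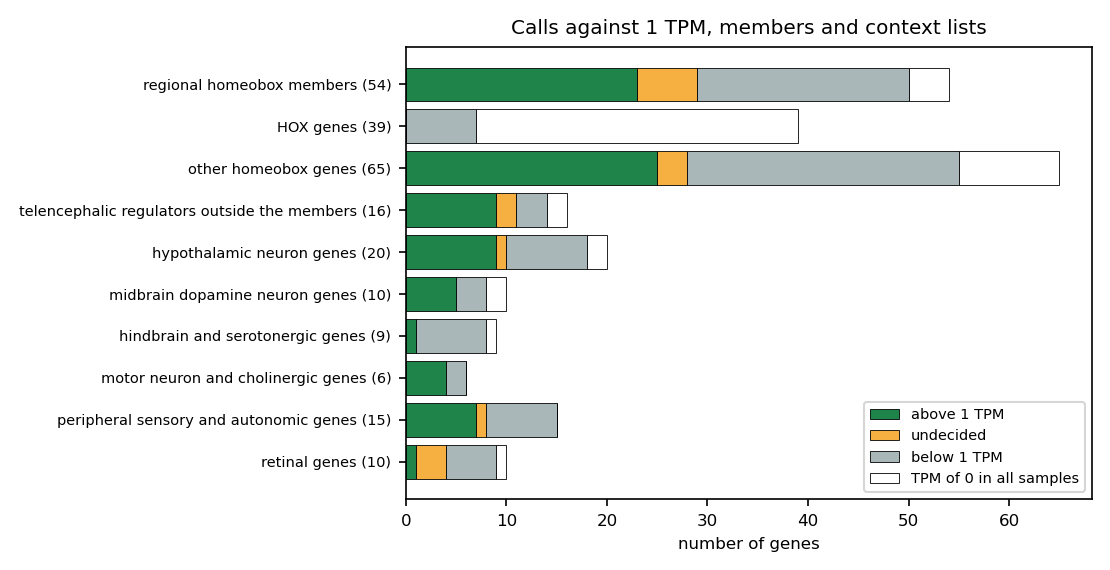
Number of genes above, undecided, below and without signal against the 1 TPM bar (limma, adjusted p under 0.05), for the members (top) and for each context list, with the list size in brackets. None of the 39 HOX genes is above the bar, while 9 of 16 telencephalic and 9 of 20 hypothalamic genes are.

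Of 16 telencephalic regulators outside the members 9 were above the bar, among them TLE4 (91.9 ± 23.1 TPM), TBR1 (82.5 ± 9.91) and DLX1. DLX1, a factor of forebrain GABA neurons, was at 37.7 TPM in sample 3, against 80.4 and 82.0 TPM in samples 1 and 2, lower in sample 3 as MEIS2, PAX6 and SIX3 were. Of 20 genes of hypothalamic neurons 9 were above, led by the hormone genes GHRH (198 ± 28.8 TPM), TRH (164 ± 13.0), GAL (42.0 ± 23.0) and HCRT (13.7 ± 2.67). GAL was at 15.9 TPM in sample 3, against 58.9 and 51.4 TPM in samples 1 and 2. GHRH was also lowest in sample 3, at 174 TPM, against 230 and 189 TPM. TRH (179 TPM, against 159 and 155 TPM) and HCRT (16.05 TPM, against 14.1 and 10.8 TPM) were highest in sample 3. Another 8 were below the bar, the hormone genes POMC, AGRP, OXT and AVP, the histamine enzyme gene HDC and the factors SIM1, HMX2 and HMX3, and PMCH and NPVF had 0 counts in every sample. These 10 were named after their values were seen.

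Of 10 midbrain dopamine genes 5 were above the bar: TH (219 ± 63.8 TPM), DDC (77.2 ± 16.4), DRD2 (70.9 ± 11.3), NR4A2 (3.22 ± 1.39) and SLC18A2 (2.82 ± 1.01). FOXA1, a forkhead factor of the floor plate, had 0 counts in every sample, and its relative FOXA2 had 1 count in all. SLC18A2 and the FOXA genes were named after their values were seen. Of 9 hindbrain and serotonergic genes 7 were below the bar, among them the serotonergic genes TPH2 (0.303 ± 0.0493 TPM), GATA2 (0.247 ± 0.359) and SLC6A4 (0.21 ± 0.0964). In the motor neuron and cholinergic list 4 of 6 were above, AGRN (89.4 ± 3.69 TPM), SLC5A7 (77.4 ± 40.8), SLC18A3 (23.4 ± 2.25) and CHAT (2.08 ± 0.07). SLC5A7 was at 124 TPM in sample 3, against 47.8 and 60.5 TPM in samples 1 and 2, while AGRN, SLC18A3 and CHAT differed less. The 2 below were the motor neuron factors MNX1 (0.0167 ± 0.0153 TPM) and OLIG2 (0.103 ± 0.112), named after their values were seen. Of 15 peripheral sensory and autonomic genes 7 were above, led by the receptor genes RET (55.9 ± 13.1 TPM), NTRK2 (55.6 ± 9.1), NTRK3 (14.7 ± 3.87) and TRPV1 (7.58 ± 2.43). PRPH was undecided (1.44 ± 0.181 TPM), and the other 7 were below the bar. Those 7 were DRGX, the highest of them at 0.237 ± 0.0208 TPM, P2RX3, RUNX1, TLX3, HAND2, SCN10A and RUNX3. PRPH and those 7 were named after their values were seen. Of 10 retinal genes only NRL (3.63 ± 0.406 TPM) was above. These counts stand beside 40.6% of all genes and 71.2% of protein-coding genes above the bar. Those background shares leave out genes without signal, which the list counts include. With or without such genes, the share of every context list was under that of protein-coding genes.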

How the data were processed

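Estimated counts and TPM of 78932 genes, deposited by the authors with 1 column per sample, were made with RSEM on GRCh38.p14 per the submitters' processing notes. Per the labels' protocols, polyadenylated RNA was made into strand-specific libraries and sequenced as paired reads of 151 bp. The aligner, annotation release, filters and strand setting of the counting were not given in the sources used here. Some estimated counts the authors deposited hold fractions, and they were rounded to whole numbers for edgeR and DESeq2. They were whole in every sample for 40 of the 54 members. The deposited TPM values are shares of a fixed total with 2 decimals, so levels near 0.01 are coarse.

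Levels were tested against 1 TPM with limma 3.58.1 (1 intercept, variance trend on) over all genes with any TPM, after a test on simulated data. Sample differences used TPM, with TMM scaling (edgeR 4.0.16) and DESeq2 1.42.0 size factors as alternatives. Ratios were taken within samples, and of 8 planned ratios 6 are given, with p-values adjusted over those 6. Each adjusted p was 0.25. A chi-square test of counts between each pair of samples gave at least 22.5 per degree of freedom, far above sampling noise. All 3 were therefore kept as separate columns. The value cannot tell separate cultures from separate libraries of the same culture.

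The members, lists and tests were chosen with earlier results of these data known. Every member is accounted for, and those above the bar or undecided were given by sample. From each context list genes were named from the 4 highest, and others were chosen after their values were seen. Some genes of these lists are not reported here. RefSeq positions on GRCh38.p14 matched all 54 members by symbol, and 21 members overlap another RefSeq gene. Protein sequences were not used here.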

Additional observations from a re-analysis of the deposited data

How the results depend on the processing

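No paired analysis was possible because the series has 1 group. The number of members above the bar was 22 to 23 when a sample was left out (PHOX2A was undecided without sample 3), 25 on CPM, and the number below was 16 to 20 when a sample was left out. With a mean estimated count of at least 10 only 3 members were below the bar, since 32 members passed that filter. Members 2-fold or more lower in sample 3 numbered 3 with a pseudocount of 1 or with TPM rescaled without mitochondrial genome genes and 1 with TMM or DESeq2 scaling, against 5. At 1.5-fold they numbered 10, and those higher 5. The 3 that were higher became 2 to 4 with sample 1 or sample 2 left out, and the lower ones 4 to 5. The ratio of LHX2 over LHX9 passed 2 SD from 0 with a pseudocount of 1 (2.56), on CPM (2.61), and with sample 2 or sample 3 left out (1.97 to 3.29 over all such settings). Causes were not tested. Ratios of OTX1 to OTX2 and of LMX1A to LMX1B are not given because the genes lie at or near the floor of 3 counts.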

Other observations

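Many homeobox genes have an antisense, divergent or intronic RNA named after them, and 18 such RNAs of 16 members were in the table. This search by name was chosen after the data were seen. Of the 18, 6 were above 1 TPM (limma, adjusted p under 0.05), 2 were undecided, 3 were below and 7 had no signal and were not tested. Over all genes tested, 40.6% were above and 45.1% were below. The highest was LHX5-AS1, at 89.1 TPM in sample 3, against 99.8 and 94.3 TPM in samples 1 and 2, higher than LHX5 itself in every sample on TPM, though their counts were close (1084 for LHX5-AS1 and 1150 for LHX5 in sample 3). IRX2-DT was at 55.1 TPM in sample 3, against 35.7 and 33.9 TPM in samples 1 and 2, and so was highest in the same sample as IRX2. LHX1-DT was at 15.4 TPM in sample 3, against 15.3 and 14.4 TPM in samples 1 and 2. SIX3-AS1 was at 5.95 TPM in sample 3, against 10.2 and 9.63 TPM in samples 1 and 2, and ISL1-DT at 4.94 TPM in sample 3, against 7.54 and 8.99 TPM in samples 1 and 2, each lowest in the same sample as its neighbour. LHX2-AS1 was at 2.98 TPM in sample 3, against 2.28 and 2.48 TPM in samples 1 and 2. The RNAs named after OTX2, EN2, NKX2-2, LMX1A, LMX1B and IRX4, genes at or near 0 themselves, had 0 counts in every sample. Because the strand setting of the counting is not given, reads of a gene and its antisense RNA may not be told apart.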
